A study of Mus musculus with 12 samples.

Results

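The genes of the matrix metalloproteinases (Mmp), of the Adamts proteases and of their tissue inhibitors (Timp) were followed in RNA sequencing of mouse mammospheres, the spheres that mammary cells form in suspension culture. All genes of the deposited table whose name is Mmp, Adamts or Timp followed by a digit were taken, which gave 46 of 23406 genes. They were 23 Mmp, 19 Adamts and 4 Timp genes, or by name 42 proteases and 4 inhibitors, and are called members here. The 12 libraries formed 4 groups of 3. The donors of the mammospheres, which were at passage 2, were wild-type C57BL/6J mice (WT) or C57BL/6J mice with the p66Shc knock-out (p66-/-, here KO). Each genotype was sampled at 2 months of age (young) and at 12 months (aged). The design text gives 3 mice at each age, but the labels do not tie each library to a mouse and a culture, so the p-values measure the spread between libraries. The labels do not say how the knockout allele was made.

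Mmp proteins are zinc proteases that are made as inactive precursors and, once activated, cut collagens, proteoglycans and other matrix proteins. Adamts proteins are related secreted zinc proteases that trim procollagens or cut large proteoglycans such as aggrecan and versican. Timp proteins bind the active site of these proteases and block it, and Timp3 also inhibits several Adamts and Adam enzymes. In the mammary gland, matrix proteases and Timp proteins take part in duct branching and in the remodelling of the gland after lactation.

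Libraries held 31845169 to 109079737 reads in genes, the most in replicate 3 of aged KO. Values are deposited CPM, the reads of a gene relative to a library size corrected by TMM (trimmed mean of M-values), and 3 reads stood for 0.029 to 0.0859 CPM. Shc1, which encodes p66Shc and shorter isoforms that are summed with it, had mean CPM of 296 ± 25.3 in young WT, 211 ± 8.44 in aged WT, 208 ± 0.329 in young KO and 169.9 ± 7.6 in aged KO (± SD, n = 3), so its level checks the genotype labels only in part. Gene coordinates are those deposited with the values, on mm10, and lists of 4 group means run from young WT and aged WT to young KO and aged KO. The summed level of 12 fibroblast markers was 10020 to 14630 CPM per library, against 331 to 4056 CPM for 12 luminal epithelial markers. In such bulk libraries fewer cells of a type and less RNA per cell cannot be told apart.

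Of the 23 Mmp genes, 10 form a cluster on chromosome 9 (mm10, 7272513 to 7699416, 426.9 kb) with no other gene of the table between them, in the order Mmp13, Mmp12, Mmp1b, Mmp3, Mmp1a, Mmp10, Mmp8, Mmp27, Mmp20 and Mmp7. The AP-1 motif, bound by Jun and Fos proteins and long known from promoters of these genes, was searched as TGANTCA on both strands in the 250 bases before each RefSeq start (GRCm38.p6). Windows were found for 32 of the 46 genes. Members without a window, among them Mmp2, Mmp9, Mmp19, Adamts4 and Adamts5, could not be searched, and the window of Adamts9 lies 42093 bases from its deposited start. The motif stood in the windows of 8 of the 10 genes of the cluster and in 0 of the 22 other windows. Of all 27025 genes with a window, 7.82% have it in at least 1 window, and 6.75% of all windows have it. The 100 bases before the start are shown for the 9 tested genes of the cluster, since they set Mmp8 and Mmp27, which hold no such match, beside their neighbours. Capitals mark TGANTCA, and each sequence reads 5′ to 3′ along the gene.
Mmp13 (chr9:7272414-7272513, plus strand): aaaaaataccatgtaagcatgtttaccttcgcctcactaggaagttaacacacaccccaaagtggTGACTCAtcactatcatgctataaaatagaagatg
Mmp12 (chr9:7347274-7347373, plus strand): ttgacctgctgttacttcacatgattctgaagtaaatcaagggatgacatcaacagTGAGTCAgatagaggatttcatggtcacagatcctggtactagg
Mmp1b (chr9:7388027-7388126, minus strand): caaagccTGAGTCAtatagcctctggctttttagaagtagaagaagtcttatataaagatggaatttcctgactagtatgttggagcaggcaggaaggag
Mmp3 (chr9:7445722-7445821, plus strand): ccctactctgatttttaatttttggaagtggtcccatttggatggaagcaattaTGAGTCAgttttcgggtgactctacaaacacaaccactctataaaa
Mmp1a (chr9:7464041-7464140, plus strand): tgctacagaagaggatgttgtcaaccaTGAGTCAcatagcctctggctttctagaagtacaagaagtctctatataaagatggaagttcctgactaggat
Mmp10 (chr9:7502242-7502341, plus strand): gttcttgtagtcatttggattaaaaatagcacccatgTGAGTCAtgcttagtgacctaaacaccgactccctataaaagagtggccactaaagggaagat
Mmp7 (chr9:7691990-7692089, plus strand): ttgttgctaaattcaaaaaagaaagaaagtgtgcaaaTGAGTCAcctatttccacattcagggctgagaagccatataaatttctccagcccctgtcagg
Mmp8 (chr9:7558329-7558428, plus strand): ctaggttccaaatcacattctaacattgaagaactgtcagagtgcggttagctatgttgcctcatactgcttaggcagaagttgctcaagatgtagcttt
Mmp27 (chr9:7571296-7571395, plus strand): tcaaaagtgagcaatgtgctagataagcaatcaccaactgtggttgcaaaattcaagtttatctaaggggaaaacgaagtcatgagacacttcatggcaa
A match describes the letters of the window, and binding was not measured. The other gene of the cluster with the motif was Mmp20, which had almost no reads.

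**Figure D1:**
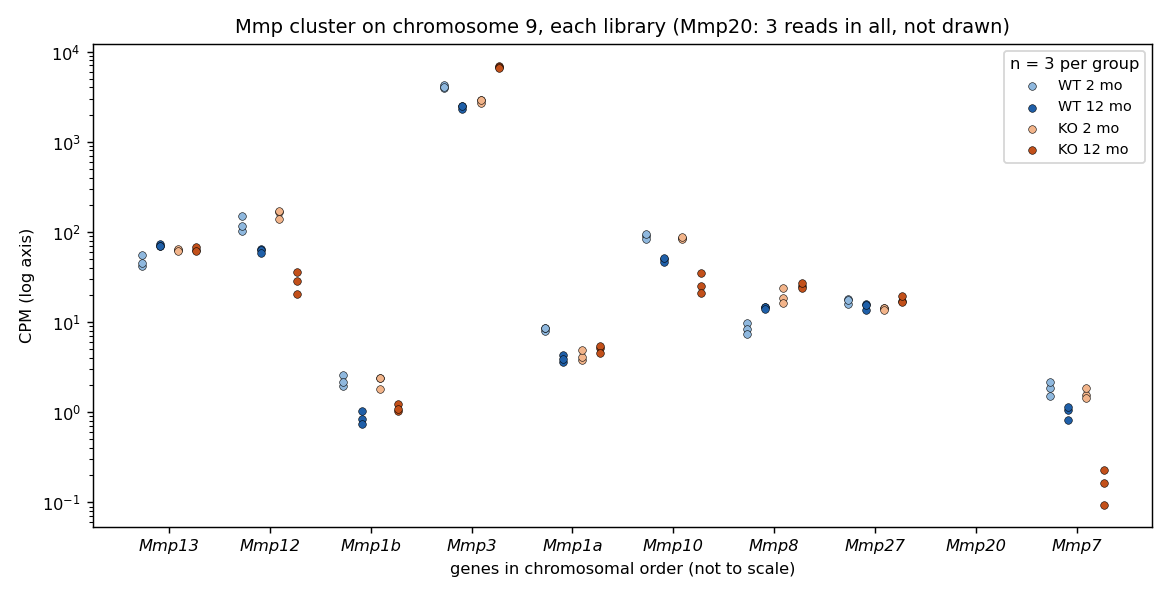
CPM on a log axis of the Mmp genes of the chromosome 9 cluster in each library, in chromosomal order, with 3 points per group. Mmp12, Mmp10 and Mmp7 are lowest in aged KO, where Mmp3 and Mmp8 are highest.

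A mean of at least 0.5 CPM over all libraries, the filter for testing, was reached by 37 of the 46 genes, namely 20 Mmp, 13 Adamts and 4 Timp genes. Genes were called with limma at a Benjamini-Hochberg adjusted p under 0.05 over all 13961 tested genes, and log2 fold changes are of log2(CPM + 0.5), which understates changes of genes with few reads. With age in WT, 5 of the 37 rose and 24 fell. Calls were made for 58.0% of all genes, 22.3% higher and 35.6% lower, and the median log2 fold change was -0.56 for the 37 genes and -0.08 for all. With age in KO, 16 rose and 11 fell (67.0% of all genes called, 32.9% higher and 34.2% lower), and the medians were 0.07 and -0.02. The age by genotype interaction, which subtracts the WT age effect from the KO age effect, was called for 25 of the 37, higher for 17 and lower for 8 (57.7% of all genes, 31.4% higher and 26.2% lower). The share of the 37 genes that fell with age in WT was thus above that of all genes, and the other shares lay closer to theirs.

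The 2 age effects share no library, and their pairs of calls split the 37 genes into 7 patterns. All 4 Timp genes, Mmp3, Mmp19, Adamts2 and Adamts7 fell in WT and rose in KO, a pattern of 9.40% of all genes. Another 11 fell in both genotypes, namely Mmp7, Mmp9, Mmp10, Mmp12, Mmp14, Mmp1b, Mmp23, Adamts4, Adamts10, Adamts12 and Adamts14. Mmp2, Mmp11, Mmp16, Mmp1a and Adamts6 fell in WT and were not called in KO. Adamts3, Adamts5, Adamts9, Adamts15 and Mmp27 rose in KO and were not called in WT. Adamts1, Mmp8 and Mmp15 rose in both, Mmp13 and Mmp24 rose in WT and were not called in KO, and Mmp17, Mmp28 and Adamts8 were not called in either. Of all genes, 16.1% fell in both, 10.1% fell in WT without a call in KO and 11.7% rose in KO without a call in WT. A further 11.7% rose in both, 6.97% rose in WT without a call in KO and 15.9% were not called in either. The calls of Adamts7 were weak, since its fall in WT had an adjusted p of 0.0696 with TMM computed over all 12 libraries, and leaving out any of 4 of the 6 KO libraries ended its rise in KO. With that TMM, Adamts15 was called higher with age in WT too (0.18, adjusted p = 0.032), and so rose in both genotypes.

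**Figure D2:**
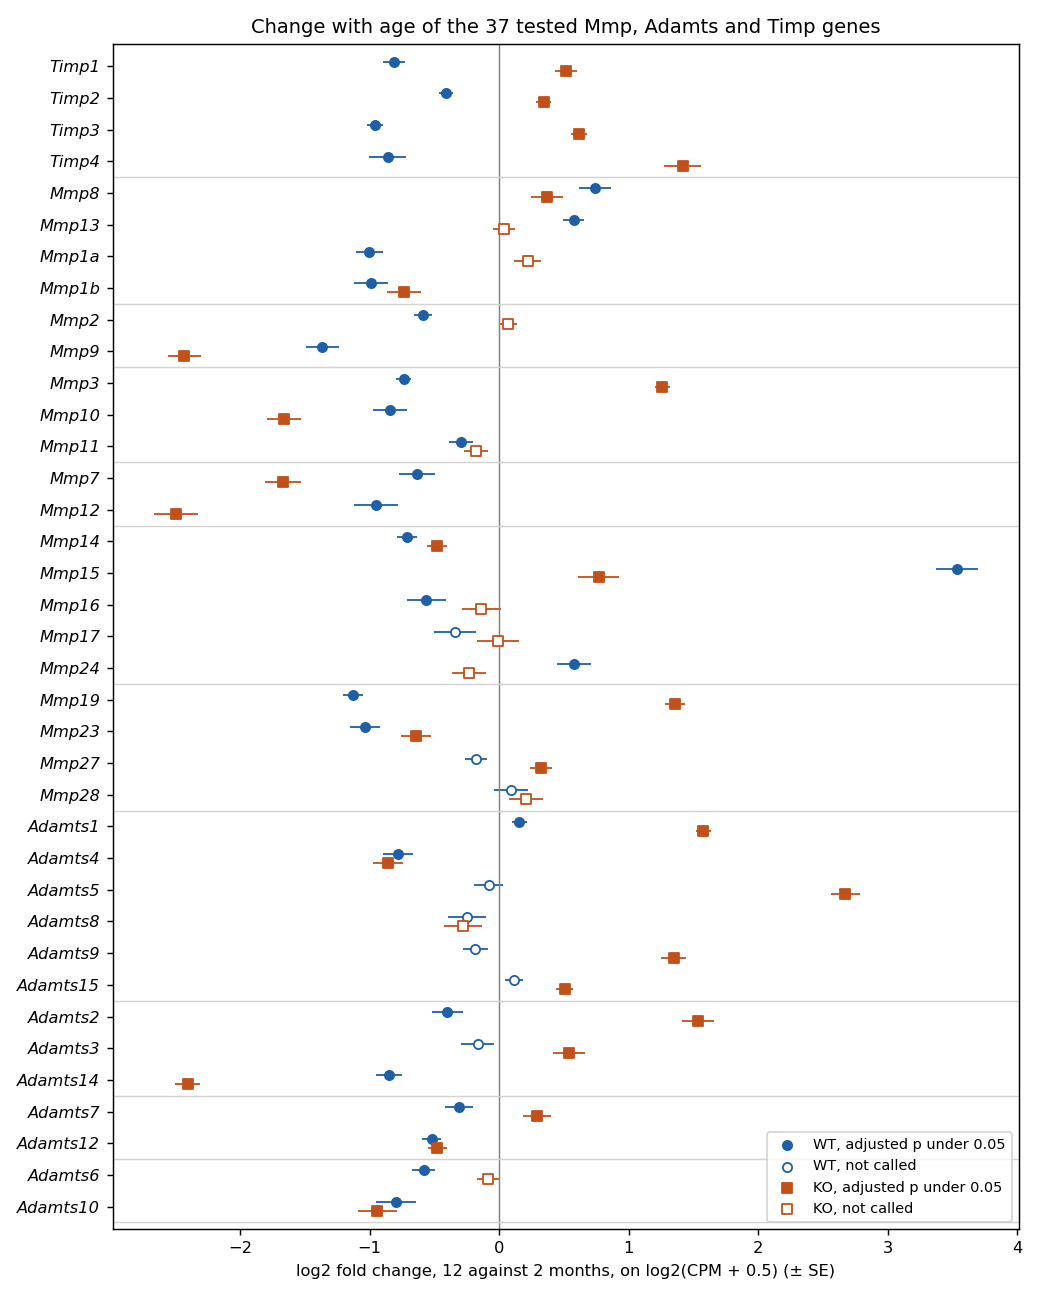
Log2 fold change with age (12 against 2 months, ± SE) of the 37 tested genes in WT (circles) and KO (squares), ordered by role. Filled marks passed an adjusted p of 0.05. The 4 Timp genes lie left of 0 in WT and right of 0 in KO, and Mmp15 has the largest rise in WT.

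Per kilobase of exon, averaged over all libraries, Mmp3 had the highest level of the 46 genes at 2233 CPM per kb. It was followed by Timp1 at 1181, Mmp2 at 834, Mmp19 at 345 and Mmp14 at 224 CPM per kb. Timp2 and Timp3 had 112 and 109, Adamts1 69.9, Mmp10 36.4 and Mmp13 23.0 CPM per kb, and every other member was lower. The stromelysin Mmp3, the gelatinase Mmp2 and the inhibitor Timp1 thus gave most transcripts of this system per length.

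Timp1, which blocks most secreted Mmp proteins (chromosome X, 20870165 to 20874737, plus strand), read 983, 1139 and 1145 CPM in young WT, 620.3, 583 and 653 in aged WT, 986, 1015 and 1064 in young KO and 1294, 1618 and 1484 in aged KO. The aged KO libraries were the highest and the aged WT libraries the lowest, with no overlap between them and the other groups. Timp1 fell with age in WT (-0.81 ± 0.08 SE, adjusted p = 1.88e-06) and rose with age in KO (0.51 ± 0.08 SE, adjusted p = 0.000115). The genotype difference at 2 months was not called (-0.09 ± 0.08 SE, adjusted p = 0.542), and KO was higher at 12 months (1.24 ± 0.08 SE, adjusted p = 2.16e-08).

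Timp3 is the inhibitor that stays bound to the matrix (chromosome 10, 86300411 to 86349505, plus strand), and it read 1241, 1237 and 1139 CPM in young WT, 633, 621 and 605 in aged WT, 722, 704 and 626 in young KO and 1034, 1003 and 1107 in aged KO. It was highest in young WT, aged KO came next, and the other 2 groups were lower and overlapped each other. Its age effects were opposite in sign in WT (-0.96 ± 0.06 SE, adjusted p = 2.24e-08) and KO (0.62 ± 0.06 SE, adjusted p = 1.72e-06), and so were the genotype effects at 2 months (-0.82 ± 0.06 SE, adjusted p = 3.33e-06) and 12 months (0.76 ± 0.06 SE, adjusted p = 1.93e-07).

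Timp2, which helps Mmp14 to activate proMmp2 besides acting as an inhibitor (chromosome 11, 118301060 to 118355411, minus strand), read 509, 526 and 522 CPM in young WT, 385, 381 and 404 in aged WT, 356, 388 and 358 in young KO and 434, 488 and 477 in aged KO. Again young WT was highest and aged KO next, and the other 2 groups overlapped. The fall with age in WT (-0.41 ± 0.06 SE, adjusted p = 2.48e-05) and the rise in KO (0.34 ± 0.06 SE, adjusted p = 0.000108) were the smallest of the 4 inhibitors. The higher level of aged KO over aged WT (0.26 ± 0.06 SE, adjusted p = 0.00102) turned to -0.05 under quantile scaling, where it was not called. Timp2 overlaps the gene BC100451 on the same strand.

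Timp4 (chromosome 6, 115245615 to 115251849, minus strand) was rare and read 2.01, 2.52 and 2.19 CPM in young WT, 0.81, 1.11 and 1.12 in aged WT, 0.892, 1.25 and 1.03 in young KO and 3.37, 3.19 and 4.47 in aged KO. Counts were 33 to 462 reads per library. Each KO library of 12 months lay above every other library, and Timp4 had the largest interaction of the inhibitors (2.28 ± 0.20 SE, adjusted p = 5.81e-07). Timp4 lies inside Syn2 on the opposite strand, Syn2 had group means of 1.96, 1.52, 0.87 and 2.63 CPM, and the strand setting of the counting is not given, so reads of the pair could have been mixed. Timp1 and Timp3 lie likewise inside Syn1 and Syn3, whose group means were 0.327 to 0.412 and 1.43 to 3.52 CPM, far below those of the Timp genes.

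The sum of the skeletal muscle markers moved in the same directions as the Timp genes in both age comparisons, but not every marker did. Of the 7 tested, 7 fell with age in WT, where 35.6% of all genes fell. In KO 5 rose with age and 1, Ckm, fell (32.9% and 34.2% of all genes). The summed level of 8 skeletal muscle genes was 882 to 1037 CPM in young WT, 174 to 197 in aged WT, 248 to 300 in young KO and 809 to 1520 in aged KO. The sum of the 12 fibroblast markers was 12790 to 13400, 10020 to 10470, 13080 to 14630 and 12430 to 13270 CPM in the same order, and no marker of either list was at or under 3 reads in a whole group. The fibroblast sum was thus lower in aged than in young WT, like the Timp genes, but was not higher in aged than in young KO. Its markers split in KO, where mean CPM in young and aged mice was 2525 and 4137 for Dcn but 5045 and 2481 for Col3a1. The part of either cell type in the Timp levels was not tested.

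**Figure D3:**
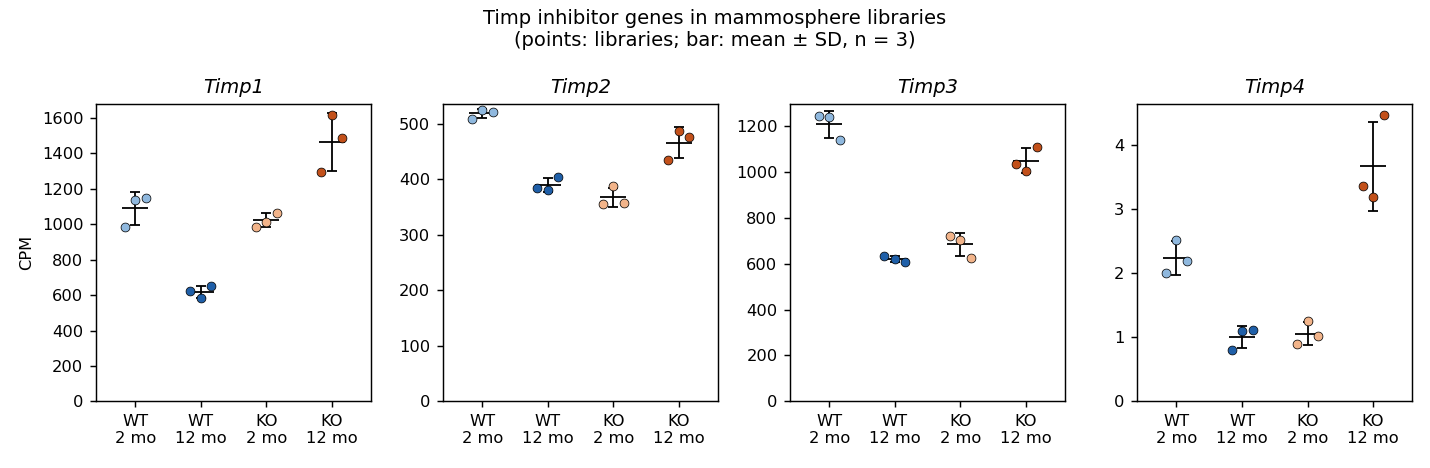
CPM of the 4 Timp genes in each library (points) with the group mean ± SD (bars, n = 3). In WT the aged libraries lie below the young ones for each gene, and in KO they lie above them.

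Mmp3, stromelysin 1, cuts proteoglycans and fibronectin and activates other Mmp precursors (chromosome 9, 7445821 to 7455974, plus strand). It read 4255, 3896 and 4088 CPM in young WT, 2506, 2333 and 2496 in aged WT, 2871, 2708 and 2875 in young KO and 6921, 6721 and 6588 in aged KO. The 4 groups did not overlap, with aged KO at the top and aged WT at the bottom. Mmp3 fell with age in WT (-0.74 ± 0.06 SE, adjusted p = 1.46e-07) and rose in KO (1.26 ± 0.06 SE, adjusted p = 9.16e-10), so that KO lay below WT in young (-0.53 ± 0.06 SE, adjusted p = 5.92e-05) and above it in aged mice (1.46 ± 0.06 SE, adjusted p = 1.69e-10).

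Mmp10, stromelysin 2 and a close relative of Mmp3 in sequence and substrates (chromosome 9, 7502359 to 7510240, plus strand), read 89, 82.8 and 95.3 CPM in young WT, 50.5, 46.9 and 50.7 in aged WT, 85, 83.6 and 87.3 in young KO and 25, 35.4 and 21.2 in aged KO. Unlike Mmp3 it fell in both genotypes, and the fall in KO (-1.66 ± 0.13 SE, adjusted p = 1.37e-07) exceeded that in WT (-0.84 ± 0.13 SE, adjusted p = 0.000101) by the interaction (-0.82 ± 0.19 SE, adjusted p = 0.0021). Mmp11, stromelysin 3, had group means of 47.1, 38.1, 49.1 and 43.5 CPM and fell in WT only slightly (-0.30 ± 0.09 SE, adjusted p = 0.0147), a call lost without replicate 2 of young WT.

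Mmp2, gelatinase A, degrades denatured collagen and basement membrane collagen (chromosome 8, 92827327 to 92853420, plus strand). It read 3220.0, 3469 and 3344 CPM in young WT, 2247, 2112 and 2321 in aged WT, 2808, 2779.8 and 2714 in young KO and 2635, 2941 and 3133 in aged KO. The aged WT libraries were lowest, and the KO ages overlapped. Mmp2 fell with age in WT (-0.59 ± 0.07 SE, adjusted p = 5.98e-06) and was not called in KO (0.07 ± 0.07 SE, adjusted p = 0.41). It was higher in KO at 12 months (0.38 ± 0.07 SE, adjusted p = 0.000234), and under quantile scaling that difference was 0.08 and not called.

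Mmp9, gelatinase B, is typically made by leukocytes and activated epithelium (chromosome 2, 164948250 to 164955846, plus strand). It read 8.56, 11.8 and 10.6 CPM in young WT, 3.91, 3.56 and 3.55 in aged WT, 8.03, 9.78 and 8.51 in young KO and 1.15, 1.49 and 1.03 in aged KO. Per kilobase its level was 1.70 CPM over all libraries, against 834 CPM for Mmp2, and the aged KO libraries were the lowest. Mmp9 fell in WT (-1.37 ± 0.13 SE, adjusted p = 8.5e-07) and further in KO (-2.43 ± 0.13 SE, adjusted p = 3.2e-09), with an interaction of -1.07 ± 0.18 SE, adjusted p = 0.000251.

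Mmp12, the macrophage elastase (chromosome 9, 7347373 to 7360461, plus strand), read 149, 102 and 117 CPM in young WT, 65.1, 63.4 and 58.9 in aged WT, 166, 138 and 172 in young KO and 35.9, 20.5 and 28.4 in aged KO. The young groups overlapped and the aged KO libraries were the lowest. It fell in WT (-0.95 ± 0.17 SE, adjusted p = 0.00032) and in KO (-2.50 ± 0.17 SE, adjusted p = 3.28e-08). The summed level of 12 measured leukocyte markers was 1020 to 1289 CPM in young WT, 829 to 904 in aged WT, 863 to 948 in young KO and 326 to 514 in aged KO. Of these markers Cd3e and Cd79a had at most 3 reads per library in the first 3 of these groups, and S100a9 in aged WT. Lyz2 made up most of the sum, with group means of 905, 645, 683 and 281 CPM. The list did not move as a whole. Cd68 had 72.0, 54.0, 60.3 and 26.5 CPM, but Cd14 had 13.2, 59.7, 11.9 and 24.9 CPM. In the fit without a filter, S100a9 rose with age in KO (1.65, adjusted p = 0.000133). The part of leukocyte RNA in the levels of Mmp9 and Mmp12 was not tested.

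Mmp7, matrilysin, a small protease of glandular epithelium (chromosome 9, 7692110 to 7699416, plus strand), read 1.86, 1.52 and 2.15 CPM in young WT, 1.05, 1.13 and 0.83 in aged WT, 1.54, 1.43 and 1.85 in young KO and 0.229, 0.094 and 0.164 in aged KO. Only 4 to 17 reads per library stood behind the aged KO values. Mmp7 fell in WT (-0.64 ± 0.14 SE, adjusted p = 0.00136) and in KO (-1.67 ± 0.14 SE, adjusted p = 1.99e-07). The summed luminal markers were 331 to 395 CPM in young WT, 3990 to 4056 in aged WT, 438 to 508 in young KO and 558 to 598 in aged KO. This sum was higher in the aged libraries of both genotypes, where Mmp7 was lower. The part of epithelial RNA in the Mmp7 level was not tested.

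The genes listed as interstitial collagenases, a class named for cutting fibrillar collagen, moved in several ways. Mmp8 (chromosome 9, 7558428 to 7568486, plus strand) read 9.66, 8.45 and 7.4 CPM in young WT, 14.7, 14.8 and 13.9 in aged WT, 18.7, 16.4 and 23.7 in young KO and 24.8, 23.8 and 27.2 in aged KO. It rose with age in WT (0.74 ± 0.12 SE, adjusted p = 0.00016) and KO (0.37 ± 0.12 SE, adjusted p = 0.0163), the latter call being lost without replicate 1 or 2 of young KO or replicate 3 of aged KO. Mmp8 was higher in KO than in WT at both ages (1.15 ± 0.12 SE, adjusted p = 4.31e-05 at 2 months and 0.78 ± 0.12 SE, adjusted p = 7.28e-05 at 12 months). Mmp8 and Mmp13 were the 2 members called higher in KO at 2 months with the deposited values.

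Mmp13, the main rodent collagenase, had group means of 47.6, 70.8, 63 and 64.7 CPM, rose with age in WT (0.58 ± 0.08 SE, adjusted p = 4.48e-05) and was not called in KO (0.04 ± 0.08 SE, adjusted p = 0.705). Mmp1a (chromosome 9, 7464140 to 7476869, plus strand) read 8.0, 8.62 and 8.6 CPM in young WT, 4.29, 3.63 and 3.92 in aged WT, 3.76, 4.12 and 4.86 in young KO and 5.1, 5.41 and 4.56 in aged KO. It was highest in young WT and fell with age there (-1.0 ± 0.10 SE, adjusted p = 2.12e-06). Its neighbour Mmp1b had group means of 2.24, 0.873, 2.2 and 1.12 CPM and fell in WT (-0.99 ± 0.13 SE, adjusted p = 2.12e-05) and KO (-0.74 ± 0.13 SE, adjusted p = 0.000253). Mmp1a and Mmp1b are near copies, no source used here says how reads that map to both were counted, and their separate values are uncertain. GENCODE annotates Mmp1a as a polymorphic pseudogene, and it is counted here among the proteases by its name alone.

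Mmp14, the membrane-bound collagenase that activates Mmp2 at the cell surface (chromosome 14, 54431603 to 54441258, plus strand), read 1616, 1851 and 1681 CPM in young WT, 1076, 978 and 1082 in aged WT, 1442, 1585 and 1484 in young KO and 969.7, 1159.7 and 1110.4 in aged KO. Both aged groups lay below both young groups. Mmp14 fell with age in WT (-0.71 ± 0.08 SE, adjusted p = 2.76e-06) and in KO (-0.48 ± 0.08 SE, adjusted p = 9.72e-05), and the interaction was not called (0.23 ± 0.11 SE, adjusted p = 0.0798). Under quantile scaling it was called in the opposite direction (-0.26, adjusted p = 0.0356).

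Mmp15, another membrane-type protease, found mainly in epithelium (chromosome 8, 95352336 to 95374293, plus strand), had the largest change of all members. It read 2.75, 3.77 and 3.93 CPM in young WT, 42.7, 44.9 and 48.3 in aged WT, 1.92, 3.35 and 2.24 in young KO and 4.16, 5.08 and 4.34 in aged KO. The aged WT libraries stood far above every other library. Mmp15 rose in WT (3.54 ± 0.16 SE, adjusted p = 5.79e-10) and less in KO (0.77 ± 0.16 SE, adjusted p = 0.000909; interaction -2.77), and KO was lower than WT at 12 months (-3.19 ± 0.16 SE, adjusted p = 1.25e-09). All 12 luminal markers also rose with age in WT, where 22.3% of all genes rose. In KO, where Mmp15 rose as well, 5 of the 12 rose and 1 fell (32.9% and 34.2% of all genes). Their summed levels were 3990 to 4056 CPM in aged WT and 331 to 598 CPM elsewhere. Basal epithelial markers summed to 263 to 279 CPM in aged WT and 55.6 to 89.0 CPM elsewhere. The part of epithelial RNA in the Mmp15 level was not tested.

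Of the other membrane-type genes, Mmp24 rose with age in WT (0.58 ± 0.13 SE, adjusted p = 0.00184) from a low level of 0.624, 1.17, 0.602 and 0.438 CPM over the groups. Mmp16 fell in WT (-0.56 ± 0.15 SE, adjusted p = 0.00594), and Mmp17 was not called in any of the 5 comparisons.

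Mmp19, a secreted protease of basement membrane and other matrix proteins (chromosome 10, 128790909 to 128800824, plus strand), read 1084, 1080.2 and 1047 CPM in young WT, 507, 478 and 479.9 in aged WT, 945, 926 and 915 in young KO and 2404, 2056 and 2716 in aged KO. The aged KO libraries lay above all others and the aged WT libraries below all others. Mmp19 fell with age in WT (-1.13 ± 0.08 SE, adjusted p = 3.69e-08) and rose in KO (1.36 ± 0.08 SE, adjusted p = 6.78e-09), and its interaction (2.49 ± 0.11 SE, adjusted p = 1.28e-09) was the largest of any Mmp gene in the upward direction. Mmp19 overlaps Tmem198b, and Mmp24 the gene BC029722, on the opposite strand. Mmp23 (chromosome 4, 155650654 to 155653384, minus strand) read 24.8, 32.1 and 30.6 CPM in young WT, 13.9, 13.3 and 14.3 in aged WT, 22.7, 20.9 and 20.6 in young KO and 11.1, 15.1 and 14.7 in aged KO, so the aged libraries of both genotypes lay below the young ones. It fell in WT (-1.04 ± 0.12 SE, adjusted p = 4.21e-06) and KO (-0.64 ± 0.12 SE, adjusted p = 0.000276). Mmp27 had group means of 17.1, 15, 14 and 17.7 CPM and rose with age in KO (0.32 ± 0.09 SE, adjusted p = 0.00435), and Mmp28, epilysin, was not called in any comparison.

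**Figure D4:**
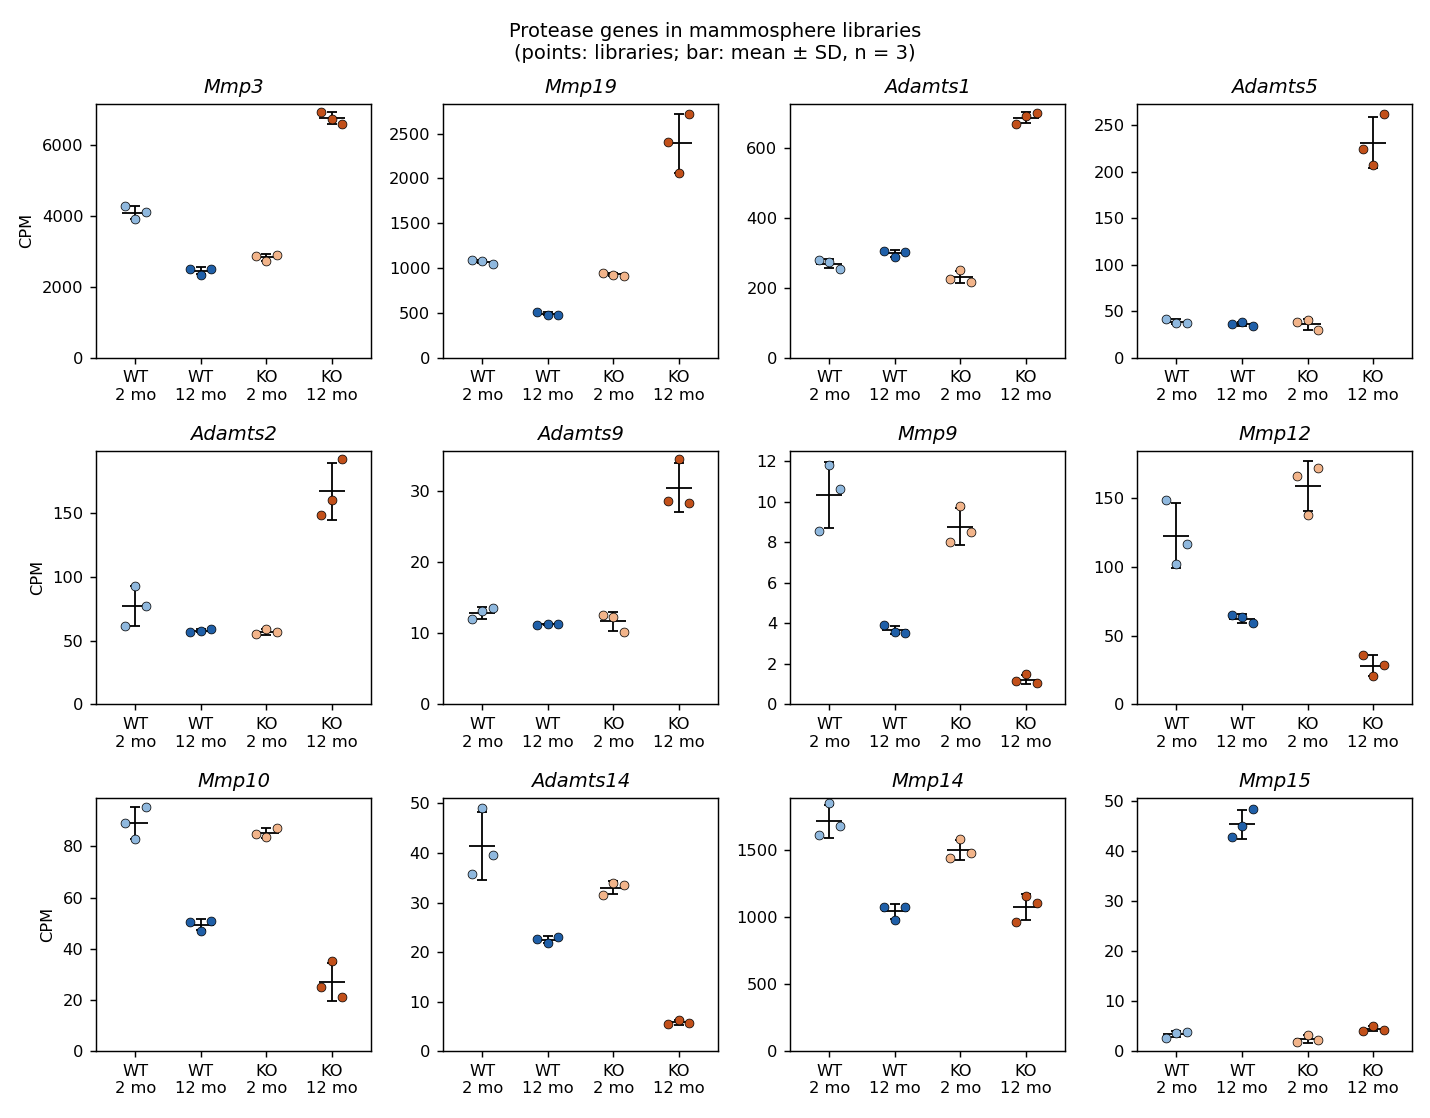
CPM of 12 protease genes in each library (points) with the group mean ± SD (bars, n = 3), each panel on its own scale from 0. Mmp3, Mmp19, Adamts1, Adamts2, Adamts5 and Adamts9 are highest in aged KO, Mmp9, Mmp12, Mmp10 and Adamts14 are lowest there, and Mmp15 is highest in aged WT.

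Among the 13 tested Adamts genes, ageing in WT came with 1 rise and 7 falls, and ageing in KO with 7 rises and 4 falls. With age in WT, 22.3% of all genes rose and 35.6% fell, and in KO 32.9% rose and 34.2% fell. The proteoglycan-cleaving genes carried the largest rises. Adamts1, which cuts versican and aggrecan (chromosome 16, 85793827 to 85803115, minus strand), read 278, 272 and 254 CPM in young WT, 306, 287 and 301 in aged WT, 226, 249 and 216 in young KO and 668, 689 and 699 in aged KO. The aged KO libraries stood far above all others. Adamts1 rose in KO (1.57 ± 0.06 SE, adjusted p = 1.16e-10), while its small rise in WT (0.15 ± 0.06 SE, adjusted p = 0.037) was lost without replicate 3 of young WT or replicate 1 or 3 of aged WT.

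Adamts5, the main aggrecanase of mouse cartilage (chromosome 16, 85858156 to 85901125, minus strand), lies 55.0 kb from Adamts1. It read 41.3, 36.8 and 37 CPM in young WT, 36.4, 38.3 and 34 in aged WT, 38, 40.6 and 29.4 in young KO and 225, 207 and 261 in aged KO. The other 3 groups overlapped and aged KO lay far above them. The rise with age in KO (2.67 ± 0.11 SE, adjusted p = 3.4e-10) was not matched by a call in WT (-0.08 ± 0.11 SE, adjusted p = 0.555), and the interaction (2.75 ± 0.16 SE, adjusted p = 1.04e-08) was the largest upward one of all members.

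Adamts9, another versican-cleaving protease (chromosome 6, 92772698 to 92901441, minus strand), read 12, 13.1 and 13.6 CPM in young WT, 11.2, 11.3 and 11.2 in aged WT, 12.5, 12.4 and 10.2 in young KO and 28.7, 34.5 and 28.3 in aged KO. It too was high in aged KO alone and rose with age there (1.35 ± 0.10 SE, adjusted p = 5.14e-08), with no call in WT (-0.19 ± 0.10 SE, adjusted p = 0.117). Adamts15 had group means of 134, 145, 145 and 206 CPM and rose in KO (0.51 ± 0.07 SE, adjusted p = 1.89e-05). Its neighbour Adamts8, 20.1 kb away, was not called in any comparison. Adamts4, an aggrecanase, went the other way, with group means of 49.1, 28.2, 44.6 and 24.3 CPM and falls in WT (-0.78 ± 0.11 SE, adjusted p = 5.43e-05) and KO (-0.86 ± 0.11 SE, adjusted p = 1.95e-05).

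The summed level of 7 endothelial markers was 117 to 135 CPM in WT of both ages, 72.9 to 77.4 in young KO and 285 to 308 in aged KO. All 7 rose with age in KO, where 32.9% of all genes rose. Like Adamts1, Adamts5 and Adamts9, the sum was highest in aged KO. It was lower in young KO than in young WT, where Adamts5 (-0.10) and Adamts9 (-0.14) were not called for genotype. Adamts1 was called lower there (-0.22), but not with TMM over all 12 libraries. The part of endothelial RNA in the levels of these genes was not tested.

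The enzymes that remove the amino-terminal propeptide of procollagens split. Adamts2 (chromosome 11, 50602084 to 50804049, plus strand) read 61.8, 93.3 and 77.6 CPM in young WT, 56.7, 57.7 and 59.1 in aged WT, 55.1, 59.4 and 56.7 in young KO and 148, 161 and 192 in aged KO. It fell in WT (-0.40 ± 0.12 SE, adjusted p = 0.0122), a call lost without replicate 2 of young WT, and rose in KO (1.53 ± 0.12 SE, adjusted p = 1.35e-07). Adamts14 (chromosome 10, 61197111 to 61273438, minus strand), which has the same role, read 35.7, 49 and 39.5 CPM in young WT, 22.6, 21.9 and 23.2 in aged WT, 31.5, 33.9 and 33.6 in young KO and 5.43, 6.33 and 5.72 in aged KO. Its aged KO libraries were the lowest, and it fell in WT (-0.85 ± 0.10 SE, adjusted p = 6.36e-06) and in KO (-2.41 ± 0.10 SE, adjusted p = 3.08e-10). Adamts3, the third of this group, had 3.24, 2.83, 2.53 and 3.91 CPM by group mean and rose in KO (0.54 ± 0.13 SE, adjusted p = 0.00206). In aged KO compared with aged WT, Adamts2 was higher (1.51 ± 0.12 SE, adjusted p = 1.25e-07) and Adamts14 lower (-1.87 ± 0.10 SE, adjusted p = 2.01e-09).

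Of the pair that cuts cartilage oligomeric matrix protein, Adamts12 had group means of 119, 82.7, 131 and 94 CPM and fell with age in both genotypes (-0.52 in WT and -0.48 in KO), and Adamts7 had 41.1, 32.8, 31.3 and 38.4 CPM. Adamts10, which acts on fibrillin microfibrils, fell by nearly the same amount in WT (-0.80 ± 0.15 SE, adjusted p = 0.000504) and KO (-0.94 ± 0.15 SE, adjusted p = 0.000107). Adamts6 had 29.7, 19.6, 35.4 and 33.4 CPM, fell in WT (-0.58 ± 0.09 SE, adjusted p = 7.18e-05) and was not called in KO (-0.09 ± 0.09 SE, adjusted p = 0.396).

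At 2 months KO was higher for 2 and lower for 12 of the 37, where 16.1% of all genes were called, 1.86% higher and 14.2% lower, and the median was -0.14 for the 37 genes and -0.09 for all. With TMM computed over all 12 libraries the counts were 3 higher and 5 lower, and calls were made for 10.4% of all genes, 3.05% higher and 7.37% lower. The 5 that were lower in both fits were Mmp1a (-0.91), Mmp3 (-0.53), Timp2 (-0.50), Timp3 (-0.82) and Timp4 (-0.82). Calls for Adamts1, Adamts2, Adamts7, Adamts14, Mmp2, Mmp23 and Mmp27 were lost in the second fit, with adjusted p-values of 0.0762 to 0.209. A higher level of Adamts6 in KO was gained there (0.34, adjusted p = 0.0276, against 0.25 and 0.0699 with the deposited values).

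At 12 months KO was higher for 19 and lower for 7 of the 37 (70.2% of all genes called, 31.3% higher and 38.9% lower), with medians of 0.24 and -0.07. All 4 Timp genes and 8 of 13 Adamts genes were higher in KO, and Adamts14 was the single Adamts gene that was lower. Of the 20 Mmp genes, 7 were higher and 6 lower. The 6 were Mmp7 (-1.18), Mmp9 (-1.28), Mmp10 (-0.88), Mmp12 (-1.16), Mmp15 (-3.19) and Mmp24 (-0.83). Adamts5 (2.65 ± 0.11 SE, adjusted p = 2.27e-10) and Mmp19 (2.28 ± 0.08 SE, adjusted p = 5.2e-11) had the largest differences upward.

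Proteases were set against inhibitors by summing CPM per kb over the 42 Mmp and Adamts genes and over the 4 Timp genes in each library. The protease sum was 4109 ± 43.0 in young WT, 2552 ± 100.4 in aged WT, 3157 ± 39.3 in young KO and 5773 ± 82.0 CPM per kb in aged KO (SD, n = 3). The inhibitor sum was 1508 ± 102, 873 ± 41.9, 1329 ± 37.9 and 1899 ± 189 CPM per kb in the same order. Both sums were lower in aged than in young WT and higher in aged than in young KO, with no overlap of the ages. The ratio of the sums was 2.74 ± 0.22 (2.59 to 2.99 over libraries), 2.92 ± 0.06 (2.86 to 2.98), 2.38 ± 0.08 (2.32 to 2.47) and 3.06 ± 0.32 (2.75 to 3.40). The ratios of the ages overlapped in WT and did not in KO. Without division by length the ratio was 4.07, 4.47, 4.46 and 5.01, so that young KO was above rather than below young WT. No test was made of these sums, whose members were chosen with results known.

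The ratio rested on 2 genes. Mmp3 made up 49.6% to 64.9% of the protease sum by group, and Timp1 79.8% to 86.8% of the inhibitor sum. Without Mmp3, an alternative chosen after seeing the data, the ratio was 1.23, 1.37, 1.20 and 1.07, so its direction with age in KO turned. Adamts genes made up a small part of the protease sum, with 122, 110, 111 and 219 CPM per kb in the 4 groups.

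**Figure D5:**
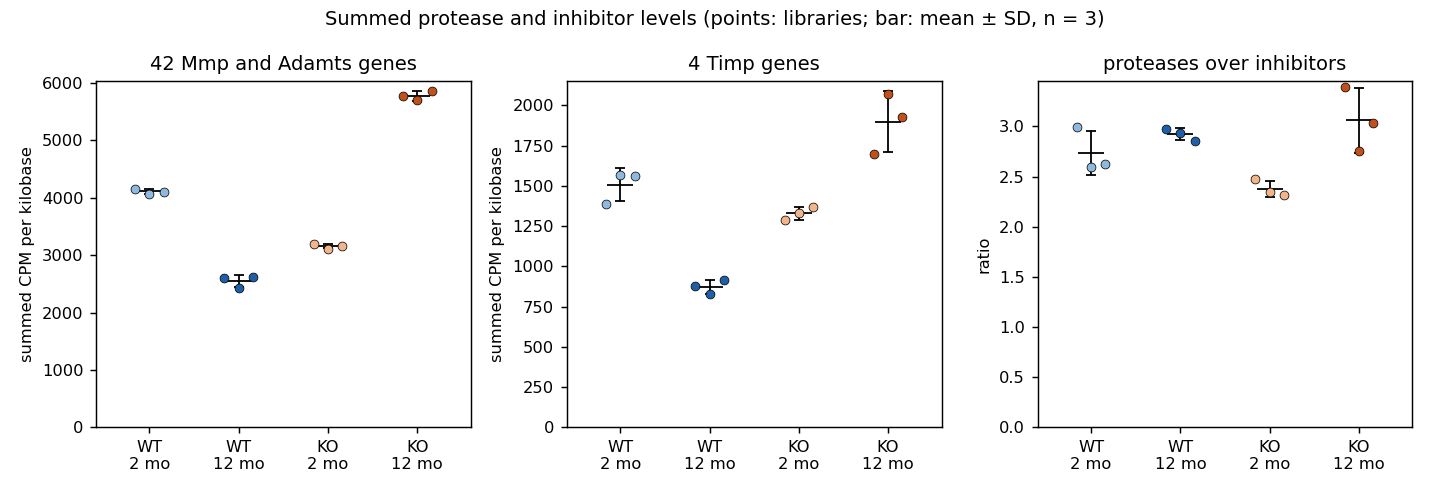
Summed CPM per kb of the 42 protease genes (left) and the 4 Timp genes (middle), and their ratio (right), in each library (points) with the group mean ± SD (bars, n = 3). Both sums are lowest in aged WT and highest in aged KO, while the ratio lies between 2.32 and 3.40 in every library.

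The other 9 members had a mean under 0.5 CPM and were not tested in the main fit. Mmp20, the enamel protease, had 3 reads in all 12 libraries together, and Mmp21 had 20. Adamts19 had 20 to 30 reads in the young WT libraries, 0 to 8 in aged WT, 12 to 13 in young KO and 1 to 7 in aged KO. In the fit without a filter it fell with age in WT (-0.92 ± 0.11 SE, adjusted p = 3.26e-05) and KO (-0.54 ± 0.11 SE, adjusted p = 0.00158). Adamts13, Adamts16, Adamts17, Adamts18, Adamts20 and Mmp25 had between 0 and 20 reads in each library. The fit without a filter also called Adamts13 (0.13) and Adamts16 (0.21) higher with age in WT, and Adamts17 lower with age in KO (-0.28). At 12 months it called Adamts16 and Adamts17 lower and Mmp21 higher in KO, and the interactions of Adamts16 and Adamts17 were called downward. These calls rest on few reads.

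Genes that act around these proteases were taken as lists. Of all genes, 22.3% were called higher and 35.6% lower with age in WT, and 32.9% and 34.2% in KO. Of 14 tested genes of Mmp activation and the plasminogen system, 7 rose and 3 fell with age in WT, and 7 rose and 5 fell in KO (median log2 fold change 0.21 and 0.36). Serpinb2, an inhibitor of plasminogen activators, had 18.9, 28.8, 12.2 and 285 CPM by group mean, and rose in KO (4.49 ± 0.12 SE, adjusted p = 6.62e-12). St14, matriptase, had 9.83, 100.2, 8.55 and 15.2 CPM and rose in WT (3.29 ± 0.12 SE, adjusted p = 5.58e-11) along with the epithelial markers given beside Mmp15. Hpn, hepsin, had 0.639, 5.27, 0.274 and 0.454 CPM and rose in WT (2.35 ± 0.13 SE, adjusted p = 3.1e-09). Plau, urokinase, and Plaur, its receptor, were chosen after their values were seen. Plau fell in WT (-0.62) and KO (-0.51), and Plaur fell in KO (-1.57).

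Of 11 tested genes of other inhibitors, inducers and clearance receptors, 1 rose and 6 fell with age in WT, and 6 rose and 2 fell in KO (medians -0.59 and 0.30). The shares of all genes were 22.3% higher and 35.6% lower in WT, and 32.9% and 34.2% in KO. Reck, a membrane-anchored inhibitor of Mmp proteins, had 25.7, 15.6, 21.1 and 42.3 CPM, fell in WT (-0.70 ± 0.06 SE, adjusted p = 2.27e-07) and rose in KO (0.99 ± 0.06 SE, adjusted p = 7.69e-09). Lrp1, the endocytic receptor that clears Mmp, Adamts and Timp proteins, had 1119, 694, 743 and 3262 CPM and moved the same ways (-0.68 ± 0.11 SE, adjusted p = 0.000115 in WT and 2.13 ± 0.11 SE, adjusted p = 1.91e-09 in KO). The integrin gene Itgb3 (-0.62 in WT and 1.05 in KO) also fell in WT and rose in KO. Cd44, a receptor of hyaluronan, rose in KO (1.41) and was not called in WT (0.05).

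Of 15 tested substrate genes of the matrix, 1 rose and 11 fell with age in WT, and 6 rose and 6 fell in KO (medians -0.37 and 0.14). Calls over all genes were 22.3% higher and 35.6% lower in WT, and 32.9% and 34.2% in KO. The substrate list shares 4 genes with the fibroblast markers. Vcan, versican, a substrate of Adamts1, Adamts5 and Adamts9, had 1171, 691, 1249.8 and 1791 CPM and changed by -0.76 in WT and 0.52 in KO, both called. Fn1, fibronectin, changed by -0.54 and 0.93, and Dcn, decorin, by -1.0 and 0.71, again all called. Lamc1, a laminin chain, rose in KO (0.89) and was not called in WT (-0.12).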

How the data were processed

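Total RNA was isolated with a PicoPure kit and sequenced from TruSeq Stranded total RNA libraries, per the labels' protocols. Per the submitters' processing notes, reads were handled with TopHat2 2.1.0, Bowtie2 2.2.4, SAMtools 0.1.18 and HTSeq 0.6.1p1 on mm10. No source used here gives the annotation, the strand setting or the use of multiply mapped reads. The signal values that the authors deposited are CPM scaled by TMM in edgeR, per the file headers. They were whole multiples of 1 read in each library (100% of values within 0.1), which gave the reads and the 3-read floors. Floors cover counting error only.

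The deposited columns do not share 1 scale. When TMM was computed again over all 12 libraries, library sizes shifted by a mean of 0.0588 log2 in young WT, -0.0037 in aged WT, -0.0296 in young KO and -0.0255 in aged KO, and counts under both scales are given where they differ by over 1.5 times.

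The values log2(CPM + 0.5) were fitted in limma 3.58.1 (R 4.3.3) as 4 groups with a trended variance (8 residual degrees of freedom), for 13961 genes whose mean reached 0.5 CPM. Benjamini-Hochberg adjustment ran over all tested genes in each of 5 comparisons, and genes were called under 0.05. The fit was also run on simulated counts with few changed genes and a shared scale. That run checks the code and not the fit on data like these, where most genes were called in several comparisons. edgeR 4.0.16 and DESeq2 1.42.0 on recovered reads were among 22 alternatives, with other pseudocounts, filters and scalings, a replicate block, single libraries left out and fits of 2 groups. Per-kilobase levels use the union of GENCODE vM21 exons (GRCm38), matched for all 46 members. Promoter windows are from RefSeq (GRCm38.p6), and where a gene had several the one nearest to the deposited start was used.

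Values per library are given for the Timp genes, Mmp2, Mmp14 and members called with an absolute log2 change of at least 1 in any comparison. Up to 4 genes with the smallest adjusted p are named per pathway list. The members, lists and tests were chosen with earlier results of these data known.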

Additional observations from a re-analysis of the deposited data

Results flagged for a closer look

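The change with age differed between KO and WT for 25 members, by the interaction term of the limma model at an adjusted p under 0.05. Values are log2 changes in KO minus those in WT. The difference was downward for 8 genes, namely Mmp15 (-2.77), Adamts14 (-1.56), Mmp12 (-1.55), Mmp9 (-1.07), Mmp7 (-1.03), Mmp10 (-0.82), Mmp24 (-0.81) and Mmp13 (-0.54). Among these, Mmp15 rose in both genotypes and more in WT, and Adamts14, Mmp12, Mmp9, Mmp7 and Mmp10 fell in both and more in KO.

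The difference was upward for 17 genes. The 4 inhibitors had 0.75 (Timp2), 1.33 (Timp1), 1.58 (Timp3) and 2.28 (Timp4). The Mmp genes were Mmp27 (0.50), Mmp2 (0.65), Mmp1a (1.23), Mmp3 (2.0) and Mmp19 (2.49). The Adamts genes were Adamts15 (0.39), Adamts6 (0.49), Adamts7 (0.60), Adamts3 (0.71), Adamts1 (1.42), Adamts9 (1.53), Adamts2 (1.93) and Adamts5 (2.75). The value of Adamts15 was 0.12 and not called under quantile scaling.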

How the results depend on the processing

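Alternatives were followed for 143 of the 185 tested gene values, namely all 121 called ones, all of the genes given by library and the others printed from the main fit. The 42 not followed were not called in the main fit, and some of them also change sign under another scaling. Some gain a call under an alternative, such as Adamts15 for age in WT and Adamts7 for genotype at 12 months, and are not in the counts that follow. Of 3101 alternative values, 2947 kept direction and call, 106 lost the call (73 of them for genotype at 2 months), 29 gained it in the same direction and 19 changed sign. The 14 calls for genotype at 2 months became 9 without a filter and 8 with TMM over all 12 libraries, with quantile scaling and with edgeR, and 7 to 16 with single libraries left out (8 without WT replicate 2, 7 without KO replicate 3). Leaving out single libraries gave 27 to 30 calls for age in WT, 25 to 28 for age in KO, 23 to 28 for genotype at 12 months and 25 to 28 for the interaction. Quantile scaling moved the median of all genes at 2 months from -0.09 to 0.02.

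Changes of sign among the followed values were as follows. Mmp13 had -0.0018 to 0.066 for age in KO with single libraries left out (-0.0018 without KO replicate 2 at 12 months). Adamts5 had 0.014 with edgeR for age in WT, and for genotype at 2 months 0.013 with edgeR and -0.19 to 0.036 with single libraries left out (0.036 without KO replicate 3). For genotype at 2 months, Mmp10 had 0.028 with TMM over all 12 libraries, with quantile scaling and with DESeq2 and 0.041 with edgeR, Mmp7 had 0.046 with quantile scaling, and Timp1 had 0.087 with quantile scaling and 0.012 with edgeR. For genotype at 12 months, Mmp14 had -0.37 with quantile scaling, a call gained in the opposite direction (adjusted p = 0.000376), and -0.0085 to 0.12 with single libraries left out (-0.0085 without KO replicate 2, -0.0023 without WT replicate 2), Mmp23 had 0.21 with quantile scaling, 0.029 with DESeq2 and -0.12 to 0.10 with single libraries left out (0.10 without KO replicate 1), and Timp2 had -0.045 with quantile scaling. The interaction of Mmp14 was -0.26 with quantile scaling, also called (adjusted p = 0.0356). The cause was not tested.

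The ratio of proteases to inhibitors in young WT, aged WT, young KO and aged KO was 1.23, 1.37, 1.20 and 1.07 without Mmp3, 4.07, 4.47, 4.46 and 5.01 without division by length, and 2.08, 2.17, 1.76 and 2.61 without Mmp2. Without Timp3 it was 3.04, 3.20 and 2.54 in the first 3 groups. With single libraries left out it was 2.61 to 2.81, 2.90 to 2.96, 2.33 to 2.41 and 2.89 to 3.22.

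With the replicate number as a block the calls were 5 higher and 25 lower for age in WT, 16 and 11 for age in KO, 4 and 13 for genotype at 2 months, 20 and 8 for genotype at 12 months and 18 and 8 for the interaction. Deviations of same-numbered libraries correlated at 0.09 to 0.59 for number 1, -0.16 to 0.08 for number 2 and 0.03 to 0.37 for number 3. The correlation was over 0.1 in 4 of 6 pairs for number 1, 0 of 6 for number 2 and 4 of 6 for number 3. These values do not settle whether the numbers pair the libraries, and the main fit does not use them. Members of few reads, such as Mmp7 and Timp4, are limited by depth.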

Other observations

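Relatives of the members outside the 3 families were counted in the same way. Of 10 tested Adam genes, membrane proteases that shed cell surface proteins and their close relatives, 0 rose and 7 fell with age in WT, and 4 rose and 4 fell in KO (median log2 fold change -0.44 and 0.07). Among all genes 22.3% were called higher and 35.6% lower with age in WT, and 32.9% and 34.2% in KO, so the Adam counts in KO lay near those of all genes. Adam23, an adhesion protein without protease activity, had 210.4, 81.2, 120.4 and 178 CPM in young WT, aged WT, young KO and aged KO, fell in WT (-1.37 ± 0.08 SE, adjusted p = 4.12e-09) and rose in KO (0.56 ± 0.08 SE, adjusted p = 2.41e-05). Adam9 fell in WT (-0.24 ± 0.04 SE, adjusted p = 0.000248) and rose in KO (0.95 ± 0.04 SE, adjusted p = 5.44e-10). Adam33 fell in WT (-1.29) and was not called in KO (0.08), and Adam22 fell in both (-0.96 and -0.49).

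Of 6 tested Adamts-like genes, which encode matrix proteins that resemble Adamts proteins and lack the protease domain, 2 rose and 2 fell with age in WT, and 3 rose and 0 fell in KO. The shares of all genes are those given with the Adam counts. Thsd4, which takes part in fibrillin assembly, had 6.85, 72.1, 6.14 and 10.6 CPM in the 4 groups, and rose in WT (3.32 ± 0.11 SE, adjusted p = 3.23e-11) and less in KO (0.75 ± 0.11 SE, adjusted p = 5.44e-05). Its order of groups was that of Mmp15 in having aged WT far above the rest. Adamtsl4 rose in WT (1.26) and in KO (1.38). Adamtsl1 and Adamtsl3 fell in WT (-0.59 and -0.70), and in KO Adamtsl1 rose (0.39) while Adamtsl3 was not called (0.14).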
